A study of Mus musculus with 8 samples.

Results

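The genes described here encode the subunits of the proteasome, the protease complex that degrades ubiquitin-tagged proteins, and of its interferon-inducible form, the immunoproteasome. All genes on the array whose symbol begins with Psma, Psmb, Psmc, Psmd or Psme were taken, each by the probe set with the highest mean signal among those that carry 1 gene symbol. This gave 44 of the 19938 genes measured by such probe sets. Of these 44, 35 are constitutive subunits, chaperones or activators, 5 are inducible (Psmb8, Psmb9, Psmb10, Psme1 and Psme2), 2 are tissue-restricted subunits (Psma8 and Psmb11) and 2 share the letters of the symbols but are not subunits (Psmc3ip and Psme3ip1). The X-linked Psmd10 was left out.

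As background, the 20S core of the proteasome is a barrel of alpha subunits at its ends and beta subunits in its middle, and Psmb5, Psmb6 and Psmb7 carry its proteolytic sites. In cells exposed to interferon gamma, and constantly in many cells of the immune system, Psmb8, Psmb9 and Psmb10 take their places and form the immunoproteasome, which makes peptides for presentation on MHC class I. The 19S cap, with an ATPase ring encoded by the Psmc genes and a lid and base encoded by the Psmd genes, recognizes and unfolds substrates, and the PA28 activator of Psme1 and Psme2 opens the core without ATP.

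RNA came from CD16/32HI cells, labelled as malignant, and from CD16/32LO cells, labelled as infiltrating, sorted from spontaneous tail tumors of TAX-LUC mice. The paper describes the CD16/32HI population as rich in malignant large granular lymphocytes. All groups carried both transgenes, Tax of HTLV-1 under the human granzyme B promoter and luciferase under the viral LTR, on a mixed C57BL/6 and FVB background. The IL-15-/- mice had in addition a PGK-Neo cassette in place of part of the Il15 gene. Each of the 4 groups (CD16/32HI and CD16/32LO, IL-15+/+ and IL-15-/-) had 2 arrays, from 1 mouse aged 14 months (replicate 1) and 1 aged 12 months (replicate 2), and both populations of a mouse came from its tumor. With 2 mice a genotype, the p-values below measure only the spread between these arrays, and fewer cells of a type cannot be told apart from less RNA per cell in such bulk samples.

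Values are log2 signals, and array medians lay between 5.62 and 5.93. The arrays of IL-15-/- mice had medians higher by 0.133 on average in CD16/32HI and by 0.119 in CD16/32LO cells, so differences of single genes are read against this shift. Exactly equal values between arrays showed that the 4 arrays of replicate 1 had been normalized together and the 2 IL-15+/+ and the 2 IL-15-/- arrays of replicate 2 apart from them and from each other. Genotype and normalization set cannot be told apart in replicate 2. Nor can genotype and sex in any array, since Xist was at least 5.44 higher in every IL-15-/- array. The Il15 probe set, which also reads parts of the gene that the deletion leaves, was at 5.40 and 5.18 in the IL-15+/+ and at 6.31 and 5.22 in the IL-15-/- arrays of CD16/32HI cells. The CD16/32LO arrays had 6.42 and 6.88 in IL-15+/+ against 5.45 and 6.54 in IL-15-/- tumors. The IL-15-/- mouse of replicate 1 went against its labels. The macrophage markers measured (9 of 10) averaged 10.61, 10.27 and 10.92 in the CD16/32HI arrays of the other 3 mice and 8.87, 8.62 and 8.75 in their CD16/32LO arrays, while in the IL-15-/- mouse of replicate 1 they averaged 8.62 in the array labelled CD16/32HI and 10.72 in that labelled CD16/32LO. The neutrophil markers (10 of 10) ran the opposite way in each mouse, at 7.74 to 7.95 in the CD16/32HI and 9.74 to 10.19 in the CD16/32LO arrays of the other 3 mice and at 10.41 and 8.25 in this mouse. Against the paper's description of the CD16/32HI cells as rich in lymphocytes, macrophage markers were high in these arrays of the other 3 mice. NK cell markers averaged less there than in the CD16/32LO array of the same mouse (5.78 against 7.26, 5.55 against 7.12 and 5.01 against 5.24). The labels were kept, and results are given without this mouse only where that is stated.

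Promoter sequences of 3 catalytic subunits are shown because they place the inducible and the constitutive genes in their setting (RefSeq, GRCm38.p6, read 5′ to 3′ along the gene, and ending at the base before the annotated start). Psmb9 and Psmb8 lie in the class II region of the MHC on chromosome 17 beside Tap1, a subunit of the peptide transporter, and the first stretch is the whole 225 bases between the starts of Psmb9 and Tap1, which are read in opposite directions. It lies at chr17:34187331-34187555 on the minus strand. The Psmb8 stretch, at chr17:34197945-34198194 on the plus strand, holds in capitals a match to the gamma-activated site (TTCNNNGAA). The Psmb5 stretch, at chr14:54617996-54618245 on the minus strand, holds in capitals a match to the antioxidant response element (TGACNNNGC), which factors of the NRF family bind.
Psmb9: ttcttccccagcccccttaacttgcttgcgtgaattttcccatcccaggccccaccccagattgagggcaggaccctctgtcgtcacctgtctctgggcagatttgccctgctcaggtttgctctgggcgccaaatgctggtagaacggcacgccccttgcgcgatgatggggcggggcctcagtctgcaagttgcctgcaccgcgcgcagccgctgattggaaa
Psmb8: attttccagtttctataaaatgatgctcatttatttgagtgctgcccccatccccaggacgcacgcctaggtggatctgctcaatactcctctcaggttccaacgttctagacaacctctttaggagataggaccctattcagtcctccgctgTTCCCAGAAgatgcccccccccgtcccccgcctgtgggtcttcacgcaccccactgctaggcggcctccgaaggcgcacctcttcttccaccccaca
Psmb5: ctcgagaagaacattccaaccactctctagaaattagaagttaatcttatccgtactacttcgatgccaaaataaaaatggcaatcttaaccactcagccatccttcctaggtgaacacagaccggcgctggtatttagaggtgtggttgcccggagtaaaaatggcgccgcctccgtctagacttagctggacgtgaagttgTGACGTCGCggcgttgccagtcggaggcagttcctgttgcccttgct

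Promoters of 35 of the 42 subunits could be matched, and 250 bases before each start were searched on both strands. TTCNNNGAA was found in 1 of the 35, that of Psmb8, and in 7.02% of 32851 promoters of all genes. GAAA followed by NN and a further GAAA, the core of the interferon-stimulated response element, was found in 3 (Psmb3, Psmd4 and Psmd9) and in 2.98% of all. TGACNNNGC was found in 5 (Psmb5, Psmb6, Psmc6, Psmd12 and Psmd9) and in 10.2% of all. A match is a description of letters and not of a bound site.

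The subunits were well expressed in both populations. Of the 42 subunits, 40 lay above the array median on all 8 arrays, and the exceptions were Psma8, an alpha subunit of the testis, and Psmb11, the beta subunit of thymic epithelium. Psmb11 was between 4.45 and 5.36 on all arrays. Over the 8 arrays the constitutive subunits spanned a median of 0.83 from their lowest to their highest array, from 0.37 for Psmc5, an ATPase of the 19S base, to 1.43 for Psmd5, a chaperone of 19S assembly. The inducible subunits spanned 0.51 (Psme2) to 0.98 (Psmb10).

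Between the genotypes 0 of the 44 genes passed limma over all probe sets in CD16/32HI cells, where 0.0229% of the 21789 probe sets tested were called, and 0 of 44 passed in CD16/32LO cells, where 0.0367% were. At an unadjusted p under 0.05 were 1 of the 44 and 1070 of all probe sets in CD16/32HI cells, and 0 of the 44 and 417 of all in CD16/32LO cells. The results below are therefore given as levels, their overlap and their direction. Most constitutive subunits had a higher mean signal in IL-15-/- tumors (35 of 35 in CD16/32LO and 31 of 35 in CD16/32HI cells). Of the 5 inducible ones, 3 had a lower mean in CD16/32LO cells.

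Psmb9, the inducible subunit that replaces Psmb6, was lower without IL-15 in CD16/32LO cells. Its levels there were 10.59 and 10.62 in the IL-15+/+ arrays of replicates 1 and 2 and 9.98 and 10.39 in the IL-15-/- arrays. Each IL-15-/- array lay below each IL-15+/+ array, as did 4.7% of all probe sets, and the log2 difference of the means was -0.42 (SE 0.295, adjusted p = 1 from limma). Without the IL-15-/- mouse of replicate 1 this difference was -0.21. The groups overlapped in CD16/32HI cells, with 10.69 and 10.13 in IL-15+/+ against 9.95 and 10.49 in IL-15-/- tumors. The CD16/32HI difference was -0.19 (SE 0.295, adjusted p = 0.936 from limma) and turned to 0.08 without that mouse.

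Psmb8, which replaces Psmb5, was at 9.62 and 9.32 in the IL-15+/+ and at 9.34 and 9.28 in the IL-15-/- arrays of CD16/32LO cells. The groups overlapped by the first of these IL-15-/- arrays, and the log2 difference was -0.16 (SE 0.331). Psmb8 of CD16/32HI cells was at 9.78 and 9.14 in IL-15+/+ against 9.04 and 9.85 in IL-15-/- tumors. The 2 replicates ran in opposite directions there, by -0.75 and 0.71, and their mean of -0.02 became 0.39 without the IL-15-/- mouse of replicate 1.

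Psmb10, which replaces Psmb7, varied most of the 3 between mice. It was at 8.69 and 7.71 in the IL-15+/+ and at 7.93 and 8.44 in the IL-15-/- arrays of CD16/32HI cells. Its CD16/32LO levels were 8.16 and 7.81 in IL-15+/+ against 8.60 and 7.79 in IL-15-/- tumors. The groups overlapped in both populations, and the log2 differences were -0.02 (SE 0.396) and 0.21 (SE 0.396), the second being -0.20 without the IL-15-/- mouse of replicate 1.

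Of the PA28 genes, Psme1 was at 11.10 and 11.06 in the IL-15+/+ arrays of CD16/32LO cells and at 11.01 and 10.90 in the IL-15-/- arrays. It was thus lower in both IL-15-/- arrays, by a log2 difference of -0.13 (SE 0.248, adjusted p = 1 from limma). Psme1 of CD16/32HI cells was at 11.24 and 10.94 in IL-15+/+ and at 10.71 and 11.19 in IL-15-/- tumors, which overlapped. Psme2 lay between 8.76 and 9.27 on all 8 arrays, with log2 differences of 0.12 in CD16/32HI and 0.02 in CD16/32LO cells, both of which became negative when each array was centred on its median (-0.01 and -0.10). A further probe set that carries the symbols of Psme2 and its near copy Psme2b was left out, and whether the one used tells the copies apart was not tested. Over the 5 inducible genes the median log2 difference was -0.02 in CD16/32HI cells, with 1 of 5 positive and 0 of 5 lower without overlap (10.4% of all probe sets were), and -0.13 in CD16/32LO cells, with 2 of 5 positive. Over all probe sets it was 0.09 and 0.13. The inducible counts moved with the scaling. After centring 0 of 5 in CD16/32HI cells were positive and 0 lower without overlap (19.6% of all probe sets), and after quantile normalization 0 positive and 3 lower (18.3%), namely Psmb9, Psme1 and Psme2. The 2 lower without overlap in CD16/32LO cells became 3 after centring (11.8% of all probe sets) and 4 after quantile normalization (13.5%), with Psmb8 and then Psme2 added.

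**Figure D1:**
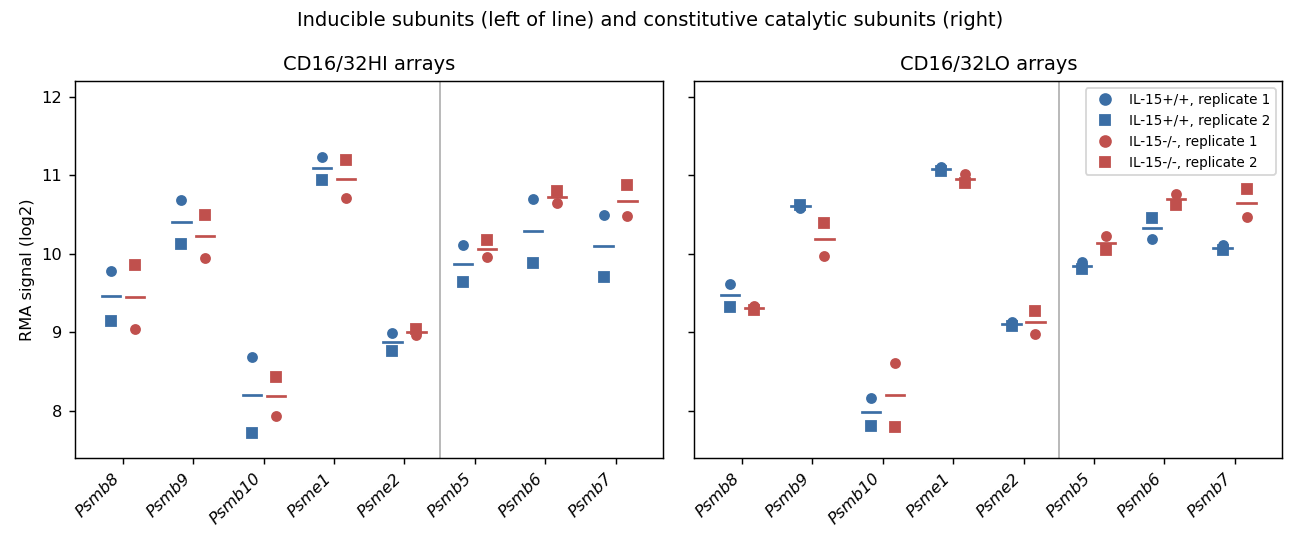
RMA signals (log2, y axis) of the inducible subunits and of the 3 constitutive catalytic subunits in the 4 CD16/32HI and the 4 CD16/32LO arrays, with replicate 1 as circles, replicate 2 as squares and the genotype mean of a panel as a line. In CD16/32LO cells Psmb9 and Psme1 have each IL-15-/- array below each IL-15+/+ array, and Psmb5, Psmb6 and Psmb7 have them above.

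The constitutive catalytic subunits went the other way in CD16/32LO cells. Psmb5 was at 9.90 and 9.80 in IL-15+/+ and at 10.22 and 10.05 in IL-15-/- tumors, Psmb6 at 10.19 and 10.45 against 10.76 and 10.63, and Psmb7 at 10.11 and 10.05 against 10.47 and 10.83. In all 3 genes each IL-15-/- array lay above each IL-15+/+ array, as did 24.2% of all probe sets. With the array median subtracted, Psmb5 and Psmb6 overlapped and Psmb7 did not. The log2 differences were 0.29 (SE 0.245), 0.37 (SE 0.296) and 0.57 (SE 0.309), each with an adjusted p = 1 from limma. The 3 genes overlapped between the genotypes in CD16/32HI cells. Psmb5 was at 10.11 and 9.64 in IL-15+/+ and at 9.95 and 10.17 in IL-15-/- tumors, Psmb6 at 10.70 and 9.88 against 10.64 and 10.80, and Psmb7 at 10.50 and 9.70 against 10.48 and 10.88. The IL-15+/+ array of replicate 2 was the lowest of the 4 in each, and the log2 differences were 0.19, 0.43 and 0.58.

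The difference between an inducible subunit and the one it replaces, taken within each array, does not depend on the level of the array as a whole. Psmb9 minus Psmb6 was -0.01 and 0.25 in the IL-15+/+ and -0.70 and -0.31 in the IL-15-/- arrays of CD16/32HI cells. The CD16/32LO arrays had 0.39 and 0.16 in IL-15+/+ and -0.79 and -0.23 in IL-15-/- tumors. It was lower without IL-15 in both replicates and both populations with no overlap, by a log2 difference of -0.62 in CD16/32HI cells and of -0.79 in CD16/32LO cells, which an exact two-sided permutation test of 2 against 2 arrays cannot call (p = 0.333 for each, the smallest it allows, and 0.75 adjusted over 9 comparisons).

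Psmb8 minus Psmb5 was -0.28 and -0.48 in the IL-15+/+ and -0.89 and -0.77 in the IL-15-/- arrays of CD16/32LO cells, again without overlap (difference -0.45). The CD16/32HI arrays had -0.32 and -0.50 against -0.92 and -0.32, which overlapped, and the difference of -0.21 was 0.10 without the IL-15-/- mouse of replicate 1. Psmb10 minus Psmb7 was -1.81 and -1.99 in the IL-15+/+ and -2.54 and -2.44 in the IL-15-/- arrays of CD16/32HI cells, without overlap (difference -0.60). The CD16/32LO arrays had -1.94 and -2.25 against -1.87 and -3.04, and the groups overlapped (difference -0.36). The exact p was 0.333 where the groups did not overlap and 1 where they did. Between the populations of a mouse none of the 3 differences passed (exact sign-flip test over 4 mice, p = 0.75 to 1, smallest possible 0.125).

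**Figure D2:**
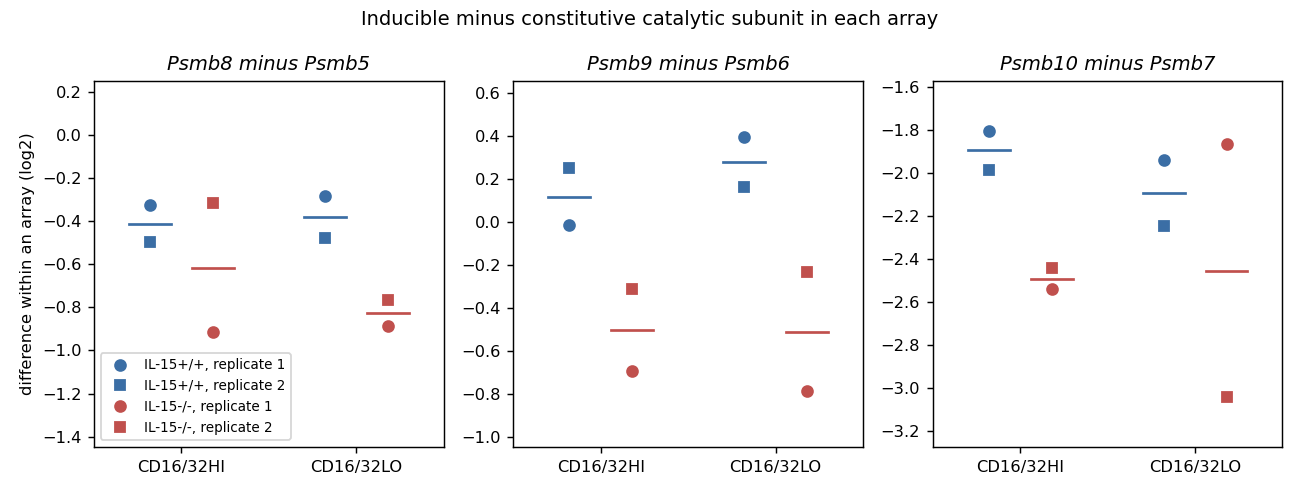
Log2 difference within an array (y axis) between each inducible catalytic subunit and the constitutive subunit it replaces, by population, with replicate 1 as circles, replicate 2 as squares and genotype means as lines. For Psmb9 minus Psmb6 each IL-15-/- array lies below each IL-15+/+ array in both populations, while for Psmb8 minus Psmb5 in CD16/32HI and Psmb10 minus Psmb7 in CD16/32LO cells the genotypes overlap. The 3 y axes have equal spans and different origins.

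Set against the median of the 35 constitutive subunits of the same array, Psmb8, Psmb9, Psme1 and Psme2 were lower in both IL-15-/- than in both IL-15+/+ arrays of CD16/32LO cells. Relative to that median Psme1 was at 1.60 and 1.57 in IL-15+/+ and at 1.14 and 0.97 in IL-15-/- tumors (difference -0.53). Psmb9 was at 1.08 and 1.13 against 0.10 and 0.47 (difference -0.82). Psmb8 was at 0.11 and -0.17 against -0.54 and -0.64 (difference -0.57), and Psme2 at -0.38 and -0.41 against -0.90 and -0.65 (difference -0.38). These 4 differences were below that of every constitutive subunit on the same scale, of which the lowest was -0.35 (Psmd4, the ubiquitin receptor of the cap). Of the 35 constitutive subunits themselves, 10 were lower without overlap on this scale and 2 higher. Psmb10 overlapped (difference -0.19). Once the 14-month IL-15-/- mouse (replicate 1) was omitted, the remaining IL-15-/- array was below both IL-15+/+ arrays for 5 of the 5 inducible genes. The median difference was then -0.62. With 1 array against 2 such an order is common, and the constitutive subunits were not counted for it on this scale. On the signals themselves 4 of the 5 were below, beside 15.6% of all probe sets. In CD16/32HI cells 2 of the 5 were lower without overlap, Psme1 (difference -0.27) and Psmb9 (difference -0.32), beside 2 of 35 constitutive subunits lower and 10 higher. The constitutive differences reached down to -0.31 (Psma5). Without the IL-15-/- mouse of replicate 1 the remaining IL-15-/- array was below for 3 of the 5 inducible genes, again without a count of the constitutive ones. On the signals themselves 0 of the 5 were below, beside 21.4% of all probe sets.

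In the CD16/32LO arrays most NK and T cell markers were lower without IL-15. This was the direction of Psmb8, Psmb9 and Psme1 but not of Psmb10 and Psme2. The NK cell markers (8) averaged 7.26 and 7.12 in the IL-15+/+ and 5.11 and 5.24 in the IL-15-/- arrays. Each IL-15-/- array was below each IL-15+/+ array in 8 of 8, beside 4.7% of all probe sets. The T cell markers (8) averaged 7.24 and 7.06 against 5.48 and 6.10, with 5 of 8 below and Cd4 above. In the CD16/32HI arrays the NK cell markers averaged 5.78 and 5.55 against 5.03 and 5.01. The part of these cells in the levels of the inducible subunits was not tested.

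The 35 constitutive subunits had positive median genotype differences in both populations. In CD16/32LO cells 35 of 35 had a positive log2 difference, with a median of 0.33 beside 0.13 over all probe sets, and 23 of 35 had each IL-15-/- array above each IL-15+/+ array, beside 24.2% of all probe sets. Within replicate 1, whose 4 arrays were normalized together, the median was 0.22 (29 of 35 positive), beside 0.00 over all probe sets. Within replicate 2 it was 0.31 (34 of 35 positive), beside 0.25 over all. When each array was centred on its median the 23 became 12 (14.5% of all probe sets), with 31 of 35 still positive. With quantile normalization they became 10 (14.2% of all probe sets), with 29 positive. In the replicate 1 arrays of this comparison the IL-15-/- one had the macrophage-rich values given above, and without its mouse the median was 0.31.

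In CD16/32HI cells 31 of 35 constitutive subunits had a positive difference, with a median of 0.25 beside 0.09 over all probe sets, and 11 of 35 did not overlap, beside 24.1% of all probe sets. The replicates disagreed. Within replicate 1 the median was -0.07 (13 of 35 positive), and within replicate 2 it was 0.54 (35 of 35 positive), beside -0.03 and 0.23 over all probe sets. Without the IL-15-/- mouse of replicate 1 the median was 0.47 and 35 of 35 were positive. After centring 5 of 35 did not overlap (15.9% of all probe sets) and 25 were positive, and after quantile normalization 5 (13.5%) and 20. The 35 genes share arrays and are not replicates of one another. Of the constitutive genes, 5 had each IL-15-/- array above each IL-15+/+ array in both populations, namely Psma2, the ATPase Psmc6 and the cap subunits Psmd3, Psmd12 and Psmd14, the last of which removes ubiquitin chains. Of all probe sets 4.72% did so in both populations. Some margins were small, as for Psma2 in CD16/32HI cells, with 10.451 in the lower IL-15-/- and 10.442 in the higher IL-15+/+ array. With the array median subtracted, only Psmd14 of these 5 kept this order in both populations, and the others overlapped in CD16/32HI cells.

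**Figure D3:**
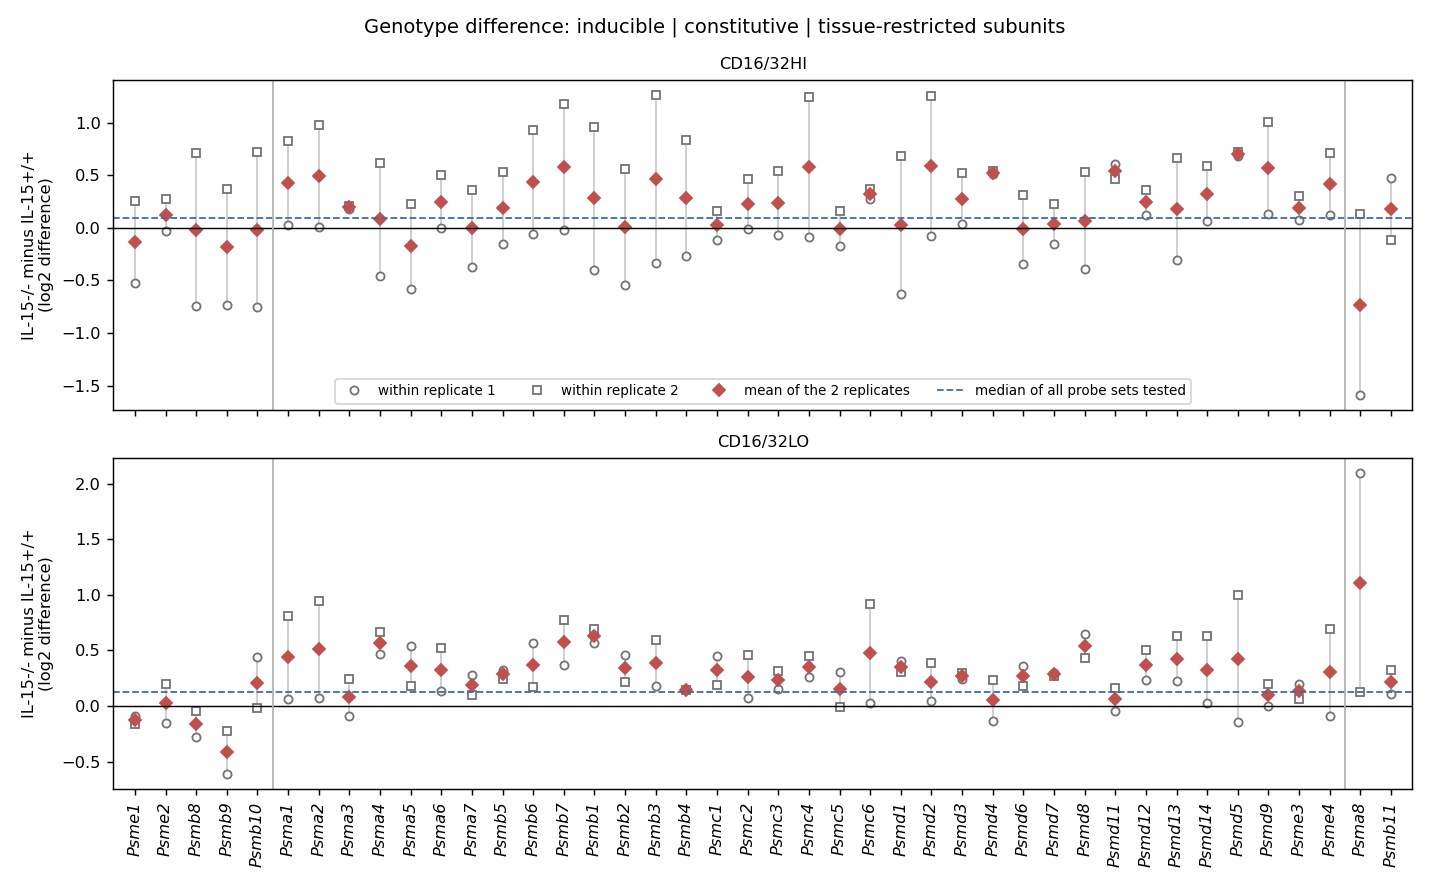
IL-15-/- minus IL-15+/+ log2 difference (y axis) of each of the 42 subunits within replicate 1 (open circles), within replicate 2 (open squares) and as the mean (diamonds), in CD16/32HI cells (top) and CD16/32LO cells (bottom), with the median of all probe sets as a dashed line. In CD16/32LO cells the means of the 35 constitutive subunits all lie above 0 and 3 of the 5 inducible ones below, and in CD16/32HI cells the replicate 2 points lie above the replicate 1 points for most subunits.

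By their place in the complex, the 14 constitutive subunits of the 20S core had a median log2 difference of 0.36 in CD16/32LO cells (10 of 14 higher without overlap, beside 24.2% of all probe sets) and of 0.26 in CD16/32HI cells (2 of 14, beside 24.1%). Of the alpha ring, Psma2 was at 10.29 and 10.24 in the IL-15+/+ and at 10.37 and 11.19 in the IL-15-/- arrays of CD16/32LO cells, so that replicate 2 carried most of its difference of 0.51 (SE 0.331). Psma4 was higher in both replicates, at 9.51 and 9.49 against 9.98 and 10.16 (difference 0.57, SE 0.298). Psma5 differed by 0.36 in CD16/32LO cells and by -0.18 in CD16/32HI cells, the second being 0.16 without the IL-15-/- mouse of replicate 1. Of the structural beta subunits, Psmb1 was at 9.59 and 9.51 in the IL-15+/+ and at 10.16 and 10.21 in the IL-15-/- arrays of CD16/32LO cells. With differences of 0.56 and 0.70 within the replicates (mean 0.63, SE 0.313) it was the highest of the 35 there. Psmb1 of CD16/32HI cells was at 10.25 and 9.68 against 9.84 and 10.64, which overlapped.

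The 19 constitutive genes of the 19S cap had medians of 0.28 in CD16/32LO cells (13 of 19 higher without overlap) and of 0.24 in CD16/32HI cells (8 of 19), against the same shares of all probe sets. Psmc4, an ATPase of the base, was at 9.07 and 8.25 in the IL-15+/+ and at 8.98 and 9.50 in the IL-15-/- arrays of CD16/32HI cells (difference 0.58, SE 0.312). Psmd2, the large scaffold of the base, was at 8.72 and 8.37 against 8.64 and 9.62 (difference 0.58, SE 0.328), and one IL-15-/- array stood above the other 3. Psmd5 was at 6.72 and 6.82 against 7.41 and 7.54 in CD16/32HI cells, without overlap (difference 0.70, SE 0.319, adjusted p = 0.854 from limma), and at 7.31 and 7.15 against 7.16 and 8.16 in CD16/32LO cells, with overlap (difference 0.43). Psmd11 of the lid, named because it alone among the 44 had an unadjusted p under 0.05, was at 8.09 and 8.19 in the IL-15+/+ and at 8.70 and 8.66 in the IL-15-/- arrays of CD16/32HI cells (difference 0.54, SE 0.217, unadjusted p = 0.0359 and adjusted p = 0.854 from limma). Psmd11 differed by 0.06 in CD16/32LO cells. The activators Psme3 and Psme4 had log2 differences of 0.19 and 0.42 in CD16/32HI and of 0.13 and 0.30 in CD16/32LO cells.

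For 5 constitutive genes (Psma3, Psma5, Psmb3, Psmc1 and Psmd2) several probe sets carried the symbol, and the sign of the difference was the same for each probe set of a gene. Near-identical gene copies could share their probes, so which copy was read is uncertain. Psmc3ip, a recombination factor, had log2 differences of -0.01 in CD16/32HI and 0.04 in CD16/32LO cells, and Psme3ip1, which binds Psme3, had -0.16 and -0.15.

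Between the populations 0 of 44 genes passed when the 4 mice were compared with mouse as a block, as did 0% of all probe sets (0 of the 44 and 257 of all at an unadjusted p under 0.05). With all 4 mice the most positive log2 differences, CD16/32HI minus CD16/32LO, were those of Psma8 (0.94), Psmb1 (0.23), Psma5 (0.22) and Psmc1 (0.20), and the most negative those of Psmd5 (-0.32), Psmd11 (-0.19), Psme2 (-0.18) and Psmb3 (-0.15). Without the IL-15-/- mouse of replicate 1, 2 of 44 passed, Psma8 and Psmd5, one higher and one lower in CD16/32HI cells, while 14.3% of all probe sets passed (6.67% higher and 7.62% lower). The alpha subunit gene Psma8 was at 6.98, 6.74 and 6.87 in the CD16/32HI arrays of the other 3 mice (IL-15+/+ replicates 1 and 2 and IL-15-/- replicate 2). Their CD16/32LO arrays had it at 4.90, 5.08 and 5.20. The 2 sets did not overlap, and Psma8 was higher in CD16/32HI cells of these mice (log2 1.80, SE 0.151, adjusted p = 0.00012 from limma). Its CD16/32LO signals lay below the median of their arrays and within the range of Psmb11, and detection above background was not tested, so no fold is given. The IL-15-/- mouse of replicate 1 had 5.38 in the array labelled CD16/32HI and 7.0 in that labelled CD16/32LO, so that in each of the 4 mice the array with the higher Psma8 signal was also the one with the higher macrophage markers. The part of macrophage RNA in this difference was not tested. With all 4 mice its log2 difference was 0.94 (SE 0.639, adjusted p = 0.92). The genotype differences of Psma8, -0.73 in CD16/32HI and 1.11 in CD16/32LO cells, were 0.01 and 0.21 without that mouse.

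Psmd5 was lower in the CD16/32HI than in the CD16/32LO array of each of the other 3 mice, by -0.58, -0.33 and -0.61, and higher by 0.24 in the IL-15-/- mouse of replicate 1. Without this mouse the log2 difference was -0.51 (SE 0.142, adjusted p = 0.044 from limma), and with it -0.32 (SE 0.177, adjusted p = 0.92). Of the 35 constitutive subunits, 16 were higher in CD16/32HI cells in all of the other 3 mice, beside 23.8% of all probe sets, and 13 of these 16 ran the opposite way in the IL-15-/- mouse of replicate 1. Of all probe sets 19.6% did both, which is 82.4% of those higher in the 3 mice. Psma5 was higher by 0.61, 0.36 and 0.41 in the 3 mice and differed by -0.51 in the other. Psmb1 and Psmc1 also had log2 differences of 0.42 and 0.37 over the 3 mice that did not pass (adjusted p = 0.11 and 0.12 from limma). Lower in the 3 mice were 4 of 35, beside 22.8% of all probe sets, and all 4 ran the opposite way in the other mouse. Of all probe sets 19.8% did both, which is 86.7% of those lower in the 3 mice. Psmd11 was one of them (-0.45, -0.41 and -0.10).

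Of the 5 inducible subunits 0 were higher and 1 was lower in CD16/32HI cells in all of the other 3 mice. This was Psme2, by -0.13, -0.31 and -0.23. Psmb9 differed by 0.10, -0.49 and 0.10 in the 3 mice and by -0.03 in the IL-15-/- mouse of replicate 1. Psmb8 and Psmb10 were lower in CD16/32HI cells of the IL-15+/+ mouse of replicate 2 (-0.18 and -0.09) and higher in those of the IL-15+/+ mouse of replicate 1 (0.17 and 0.53) and of the IL-15-/- mouse of replicate 2 (0.57 and 0.65). Their sign differed between mice, and 0 of 5 passed with or without the mouse that went against its labels.

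**Figure D4:**
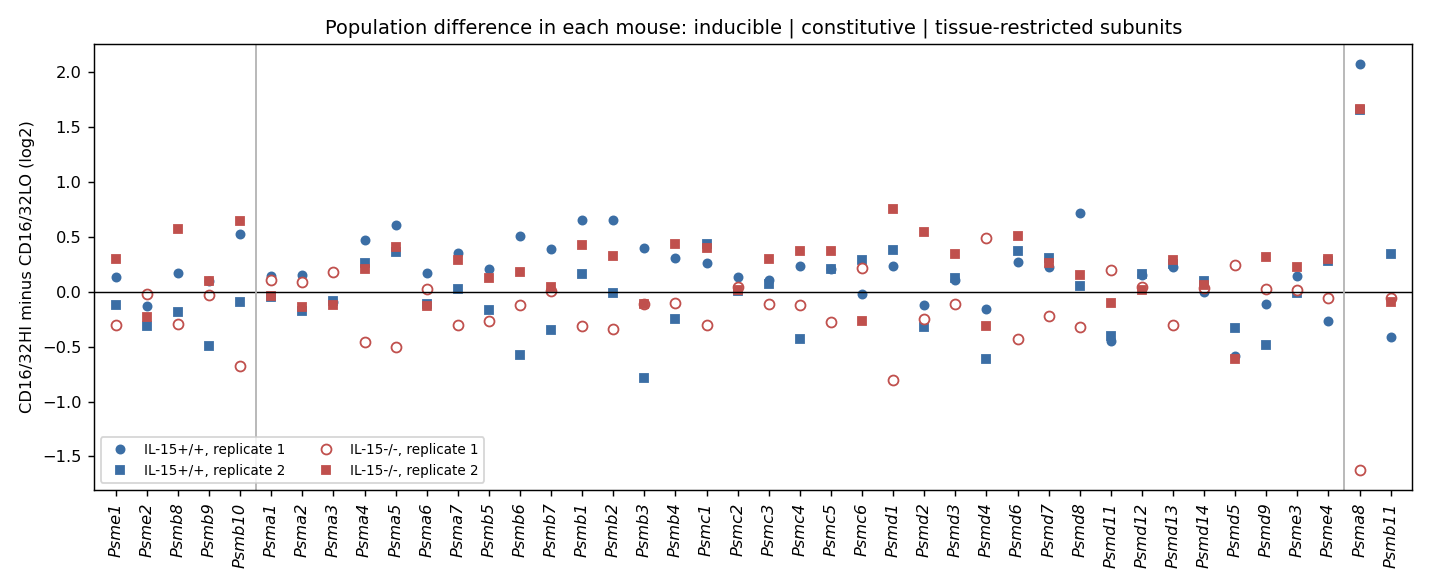
CD16/32HI minus CD16/32LO log2 difference (y axis) of each of the 42 subunits in each of the 4 mice, with the IL-15-/- mouse of replicate 1 as open circles. Psma8 lies between 1.66 and 2.07 in 3 mice and at -1.62 in the mouse of the open circles, and the inducible subunits lie between -0.67 and 0.65.

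The genotype difference itself was not called as unequal between the populations for any of the 44 genes, nor for any probe set (0% called by limma, with 0 of the 44 and 578 of all at an unadjusted p under 0.05). The most negative differences of the 2 genotype differences, CD16/32HI minus CD16/32LO, were those of Psma8 (-1.84, SE 1.14), Psma5 (-0.53), Psma4 (-0.49) and Psmd8 (-0.47), and the most positive those of Psmd11 (0.48), Psmd4 (0.47), Psmd9 (0.47) and Psmd2 (0.37). Without the IL-15-/- mouse of replicate 1 those of Psma8 and Psma5 were -0.20 and -0.08. That of Psmb9 was 0.23 (SE 0.297, adjusted p = 0.887).

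Genes that build or regulate the proteasome also had positive median genotype differences. Of 21 assembly and associated factors 15 were measured, 0 of 15 passed in either population, and their median log2 difference between the genotypes was 0.32 in CD16/32LO cells (15 of 15 positive, 10 higher without overlap) and 0.21 in CD16/32HI cells (12 positive, 4 higher without overlap). Over all probe sets the medians were 0.13 and 0.09 and the shares without overlap 24.2% and 24.1%, so that the 4 of 15 in CD16/32HI cells were near the background. The count in CD16/32LO cells moved with the scaling. With the array median subtracted, only Psmg1, Psmg2, Psmg4 and Vcp stayed higher without overlap there, beside 14.5% of all probe sets. Psmg4, a chaperone of the alpha ring, differed by 0.75 (SE 0.4) and the unfoldase Vcp by 0.47 in CD16/32LO cells. The ubiquitin ligase Ube3c and Nfe2l1, the transcription factor that induces proteasome genes, differed by 0.61 and 0.52 in CD16/32HI cells. The lowest were Rad23b, a shuttle for ubiquitinated proteins (-0.04), and the deubiquitinase Usp14 (-0.03) in CD16/32HI cells, both positive without the IL-15-/- mouse of replicate 1 (0.25 and 0.43), and the deubiquitinase Uchl5 (0.06) and Rad23b (0.13) in CD16/32LO cells. Between the populations Usp14 (log2 0.70) and Psmg4 (0.62) were higher in CD16/32HI cells without the IL-15-/- mouse of replicate 1 (adjusted p = 0.0096 and 0.046 from limma). In that setting 14.3% of all probe sets passed, and with all 4 mice neither gene did (adjusted p = 0.92 for each from limma).

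The genes of class I antigen processing, the pathway that uses the peptides of the immunoproteasome, had median genotype differences near 0. Of 12 genes 10 were measured and 0 passed, with medians of -0.02 in CD16/32HI and 0.02 in CD16/32LO cells. Tap1, which shares its upstream stretch with Psmb9, was at 7.54 and 6.66 in the IL-15+/+ and at 6.50 and 6.68 in the IL-15-/- arrays of CD16/32LO cells, so that replicate 1 alone was lower (difference -0.51, SE 0.367). The peptide editor Tapbpl differed by -0.26, and the chaperones Calr and Pdia3 by 0.50 and 0.31. The lowest in CD16/32HI cells were Calr (-0.25) and the peptidase Erap1 (-0.16), which became positive (0.49 and 0.26) without the IL-15-/- mouse of replicate 1, and the highest Nlrc5, the transactivator of class I genes (0.40), and Tapbp (0.37). Calr was higher in the CD16/32HI than the CD16/32LO arrays without the IL-15-/- mouse of replicate 1 (log2 0.66, adjusted p = 0.012 from limma). Of all probe sets 14.3% passed in that setting. With all mice the log2 difference of Calr was 0.26 and did not pass (adjusted p = 0.92 from limma).

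Of 10 genes of the interferon gamma axis 9 were measured and 0 passed between the genotypes, with medians of 0.12 in CD16/32HI and -0.23 in CD16/32LO cells. Ifng, the cytokine gene that induces the immunoproteasome, was at 7.15 and 6.13 in the IL-15+/+ and at 5.65 and 6.01 in the IL-15-/- arrays of CD16/32LO cells. Each IL-15-/- array lay below each IL-15+/+ array, as did 4.7% of all probe sets. The difference was -0.81 (SE 0.377, adjusted p = 1 from limma), with -1.50 within replicate 1 and -0.12 within replicate 2. Ifng signals lay near the array median in the IL-15-/- arrays of CD16/32LO cells and below it in every CD16/32HI array. Detection of Ifng above background was not tested in either population. Irf1, the transcription factor downstream of the cytokine, was at 8.35 and 7.58 against 6.97 and 8.26 there (difference -0.35). In CD16/32HI cells Irf1 was at 6.88 and 6.23 against 7.68 and 7.23 (difference 0.91, SE 0.455, adjusted p = 0.854 from limma). Its IL-15-/- arrays were thus higher without overlap, as were those of 24.1% of all probe sets. The kinase gene Jak2 differed by 0.78 in CD16/32HI cells. The factor Irf8 differed by -0.37 in CD16/32HI and by 0.33 in CD16/32LO cells, values that turned to 0.84 and -0.04 without the IL-15-/- mouse of replicate 1. Without it Jak2 differed by 0.24 in CD16/32HI cells, and Irf1 by 0.68 in CD16/32HI and by 0.29 in CD16/32LO cells. With all mice, the receptor gene Ifngr2 differed by 0.32 in CD16/32LO cells and the feedback inhibitor Socs1 by -0.26 in CD16/32HI cells. Between the populations, without the IL-15-/- mouse of replicate 1, Irf1 (log2 -1.28), Jak2 (-1.01), Ifng (-0.90) and Jak1 (-0.85) were lower and Irf8 (1.04) higher in the CD16/32HI arrays (adjusted p = 0.00065 to 0.013 from limma). In that setting 14.3% of all probe sets passed, while with all 4 mice 0 of the 9 passed.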

How the data were processed

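Total RNA of the sorted cells was hybridised to 8 arrays (Affymetrix Gene Chip, Whole Transcript 1.0ST). The authors deposited RMA values on the log2 scale, made in Affymetrix Expression Console from background-corrected and normalized probes. The genome build was not given in the sources used here. Probe sets were named through the platform annotation, of which 21789 carry 1 symbol (21698 matched to RefSeq by Entrez ID). These were fitted with limma 3.58.1 in R 4.3.3 as 4 group means over the 8 arrays, or with mouse as a fixed block for the population and interaction comparisons, with calls made below an adjusted p (Benjamini-Hochberg) of 0.05. The fit was tested on simulated data. Differences within an array were compared with exact permutation tests. The number of arrays limits the precision. The study's own test and other normalizations, filters, blocks and left-out arrays were tried as alternatives. Counts given for that test with over 3-fold also required its unadjusted p to be under 0.05. The paper's methods name the fold filter but no p cutoff.

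The members and gene lists were chosen with earlier results of these data known. Named were the 3 inducible and 3 constitutive catalytic subunits, Psme1, Psme2, members called, and, per comparison, the 4 highest and 4 lowest members and the 2 highest and 2 lowest of each other list. Other genes were named after their values were seen. Samples of the same number in both genotypes come from different mice. They share an age and, for replicate 1, also the normalization. The populations of one mouse share its tumor.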

Additional observations from a re-analysis of the deposited data

How the results depend on the processing

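The count of members called between the genotypes was 0 of 44 in both populations under every alternative run. Over all probe sets, 5 were called in CD16/32HI cells, and 3 with a mean signal of at least 6, 0 with a block for the normalization set, 2 with only the 4 arrays of the population, 10 by the methods' test with over 3-fold, 0 by that test after Benjamini-Hochberg adjustment, and 9 without the IL-15-/- mouse of replicate 1. In CD16/32LO cells 8 were called, and 2, 17, 0 and 26 with the set block, the methods' test with over 3-fold, that test after adjustment, and without that mouse. Leaving out 1 array gave 2 to 4 in CD16/32HI and 3 to 11 in CD16/32LO cells. Between the populations 0 members and 0 probe sets became 2 and 3114 without both arrays of that mouse, or without either of them, and stayed at 0 without any other array. For the genotype by population difference, leaving out 1 array gave 0 to 2 members and 0 to 2831 probe sets; the upper values came on omitting 1 array of the younger IL-15-/- mouse (replicate 2), where the IL-15-/- side rests on the mouse that went against its labels (Psma8 and Psmd1 passed).

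Replicate number across genotypes marks age and, for replicate 1, a shared normalization, but not a shared mouse. The changes from replicate 1 to 2 correlated between the genotypes at 0.0556 in CD16/32HI and 0.134 in CD16/32LO cells, so the numbers were not taken as pairs. With a replicate block 3 probe sets were called in CD16/32HI cells and no call of a member changed.

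Constitutive subunits whose IL-15-/- arrays lay above both IL-15+/+ arrays numbered 5 and 12 (CD16/32HI and CD16/32LO) after centring and 5 and 10 after quantile normalization, and 32 and 30 without the mouse (44% and 47.5% of all probe sets, since 1 IL-15-/- array is then left); these alternatives were added after the data were seen. Of the 44 genes, 11 in CD16/32HI and 4 in CD16/32LO cells changed sign without it. Among the inducible subunits these were, in CD16/32HI cells, Psmb8 (0.39), Psmb9 (0.08), Psmb10 (0.23), Psme1 (0.11) and the difference Psmb8 minus Psmb5 (0.10), and in CD16/32LO cells Psmb10 (-0.20). The others were Psma5, Psma7, Psma8 and Psmd6 in CD16/32HI cells and Psmb11, Psmc3ip and Psmc5 in both populations. Psme2 turned to -0.0127, -0.14 and -0.0425 in CD16/32HI and to -0.10, -0.12 and -0.14 in CD16/32LO cells with centring, quantile normalization and the set block, Psmb5 in CD16/32HI cells to -0.0448 with quantile normalization, and Psmb10 in CD16/32LO cells to -0.0441 with the set block. The cause was not tested. With 1 array left out the difference in CD16/32HI cells ran from -0.43 to 0.39 for Psmb8, -0.47 to 0.0948 for Psmb9, -0.51 to 0.47 for Psmb10, -0.37 to 0.11 for Psme1 and -0.0464 to 0.42 for Psmb5, and in CD16/32LO cells from -0.20 to 0.62 for Psmb10 and -0.12 to 0.17 for Psme2. Psmb8 minus Psmb5 ran from -0.51 to 0.10 in CD16/32HI and Psmb10 minus Psmb7 from -0.95 to 0.23 in CD16/32LO cells.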
